A study of Homo sapiens with 8 samples.

Results

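The genes examined here are the 2 sterol regulatory element-binding protein (SREBP) genes, SREBF1 and SREBF2, and the genes of the machinery that decides whether their products reach the nucleus: SCAP, INSIG1, INSIG2, MBTPS1 and MBTPS2. They were taken by symbol from a table of 58870 gene rows, each symbol matched 1 row, and all 7 passed the filter on low counts that left 13860 genes for testing. Expression was measured by RNA sequencing of Panc 10.05 cells, an established line from a human pancreatic ductal adenocarcinoma. One group is 4 control libraries of this line and the other is 4 libraries of the same line carrying an ELAPOR1 transgene, labelled as overexpression. The labels state neither the promoter of the transgene, nor whether the cells were 1 clone or a pool, nor what the control cells received. They do not say that replicates were separate cultures, so p-values measure the spread between these libraries, which may be technical. The series asks in its title about subtype and metabolic reprogramming, and the present comparison asks how the genes that control sterol and fatty acid synthesis stood in the cells with ELAPOR1.

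SREBPs are transcription factors made as precursors in the membrane of the endoplasmic reticulum (ER). When sterols are plentiful, the sterol sensor SCAP, which carries the precursors, is held in the ER by the anchor proteins INSIG1 and INSIG2. When sterols are scarce, SCAP takes the precursors to the Golgi in COPII vesicles, where the site-1 protease (MBTPS1) and the site-2 protease (MBTPS2) cut them in turn and free the fragment that enters the nucleus. SREBF2 mainly drives cholesterol synthesis and uptake, and SREBF1 mainly fatty acid synthesis. SREBF2 and INSIG1 are themselves textbook targets of nuclear SREBP, which makes them feed-forward and feedback arms of the same loop, while INSIG2 is generally not driven by SREBP.

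The promoters of the 3 members called lower in ELAPOR1 libraries are shown first, as a description. Whether the motifs marked in them had a part in the changes was not tested. Each window runs 5′ to 3′ on the strand of its gene, from 250 bases before to 50 bases after the annotated start, and comes from RefSeq on GRCh38.p14. Capitals mark matches on either strand to TCACNCCAC (a sterol regulatory element), CACGTG (an E-box) and CCAAT (the box bound by NF-Y, a cofactor of SREBP, which reads ATTGG on the other strand). No 2 of these matches overlapped.
SREBF2, chr22:41832855-41833154, plus strand: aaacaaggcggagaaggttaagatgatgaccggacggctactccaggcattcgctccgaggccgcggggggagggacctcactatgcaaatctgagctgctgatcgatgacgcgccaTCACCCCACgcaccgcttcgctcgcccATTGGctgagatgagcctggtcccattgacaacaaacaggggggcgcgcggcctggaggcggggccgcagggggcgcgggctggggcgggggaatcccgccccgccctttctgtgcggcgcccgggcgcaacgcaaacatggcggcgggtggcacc
INSIG1, chr7:155297628-155297927, plus strand: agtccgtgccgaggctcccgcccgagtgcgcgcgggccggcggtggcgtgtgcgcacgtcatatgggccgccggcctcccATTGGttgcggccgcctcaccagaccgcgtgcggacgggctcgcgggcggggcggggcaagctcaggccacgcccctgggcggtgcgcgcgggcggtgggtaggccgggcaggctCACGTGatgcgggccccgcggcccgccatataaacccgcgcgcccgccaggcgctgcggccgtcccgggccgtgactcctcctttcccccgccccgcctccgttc
SREBF1, chr17:17836937-17837236, minus strand: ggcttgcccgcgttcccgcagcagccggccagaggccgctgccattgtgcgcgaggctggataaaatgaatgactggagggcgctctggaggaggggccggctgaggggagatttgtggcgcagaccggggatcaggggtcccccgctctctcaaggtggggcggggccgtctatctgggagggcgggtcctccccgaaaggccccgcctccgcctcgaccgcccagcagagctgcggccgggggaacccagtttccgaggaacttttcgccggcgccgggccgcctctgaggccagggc

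The SREBF2 window held a sterol regulatory element match from base 118 and an ATTGG from base 145. It was the only 1 of the 7 members with a match to TCACNCCAC, which occurred in 1.13% of the 35116 promoter windows in the table. The INSIG1 window held an ATTGG from base 81 and an E-box from base 196. CCAAT or ATTGG was present in 34.6% of all windows and CACGTG in 7.26%. SCAP had an E-box from base 193. The SREBF1 window and those of INSIG2 (which has 2 annotated starts), MBTPS1 and MBTPS2 held none of the 3 motifs, which says only that these letters are not in these windows.

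SREBF2 and SREBF1 each carry a microRNA gene between their exons, and the pair shares a seed. The mature sequences are given with the seed, bases 2 to 8, in capitals, since a count of the host gene is the nearest that this table comes to them.
hsa-miR-33a-5p, in SREBF2: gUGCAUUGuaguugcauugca
hsa-miR-33b-5p, in SREBF1: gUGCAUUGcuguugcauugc

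The hairpin of MIR33A lies at chr22:41900944-41901012 and that of MIR33B at chr17:17813836-17813931, and neither overlaps an exon of its host in GENCODE release 29. Both microRNA genes were listed at 0 in all 8 libraries, and the labels describe no small RNA library, so the mature microRNAs were not measured here.

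Control libraries held 16558597 to 18128732 counts and ELAPOR1 libraries 13765504 to 17258149. ELAPOR1, which the table lists under its older symbol KIAA1324, had 5910 to 7368 counts in each ELAPOR1 library against 1 to 4 in each control, so all 8 libraries matched their labels. All 8 ductal epithelial markers examined (KRT7, KRT8, KRT18, KRT19, EPCAM, CDH1, MUC1 and SOX9) were tested, with a summed level of 12073 to 13341 CPM (counts per 1e+06 counts of a library, after scaling by the trimmed mean of M-values, TMM) in control and 11322 to 11659 CPM in ELAPOR1 libraries. KRT8 was the highest of them, at a mean of 5070 CPM. Of the 8, 7 were called, 3 lower and 4 higher in ELAPOR1 libraries, beside 44.7% of all tested genes. The summed markers of fibroblasts (6 genes, with COL1A2, DCN and LUM at 0) reached at most 4.32 CPM and those of leukocytes (6 genes, with CD3E at 0) at most 8.93 CPM. Those of endothelium (4 genes, with CDH5 at 0) summed to 1.62 to 2.13 CPM in control and 0.576 to 0.998 CPM in ELAPOR1 libraries, and those of acinar and islet cells (5 genes, with PRSS1, CPA1, CELA3A and INS at 0) at most 0.246 CPM. Of the endothelial markers 1 was called, lower. The part of these marker differences in the results on the SREBP genes was not tested.

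Of the 7 members, 4 differed between the groups at a Benjamini-Hochberg adjusted p-value under 0.05 in edgeR's quasi-likelihood test. SREBF2, SREBF1 and INSIG1 were lower in ELAPOR1 libraries and MBTPS2 was higher, while SCAP, INSIG2 and MBTPS1 did not pass the threshold. Among all tested genes 44.7% passed it, 22.1% lower and 22.6% higher, so a call alone says little here, and the members are described by the size and direction of their changes. The CPM ranges of the groups did not overlap for SREBF2, SREBF1 and INSIG1, as was the case for 39.2% of tested genes. Against a change of 1.5-fold, INSIG1 alone of the members passed (edgeR glmTreat adjusted p = 0.0102), beside 1.55% of tested genes. In RNA from whole cultures, less transcript in every cell and fewer cells with a high level cannot be told apart.

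**Figure D1:**
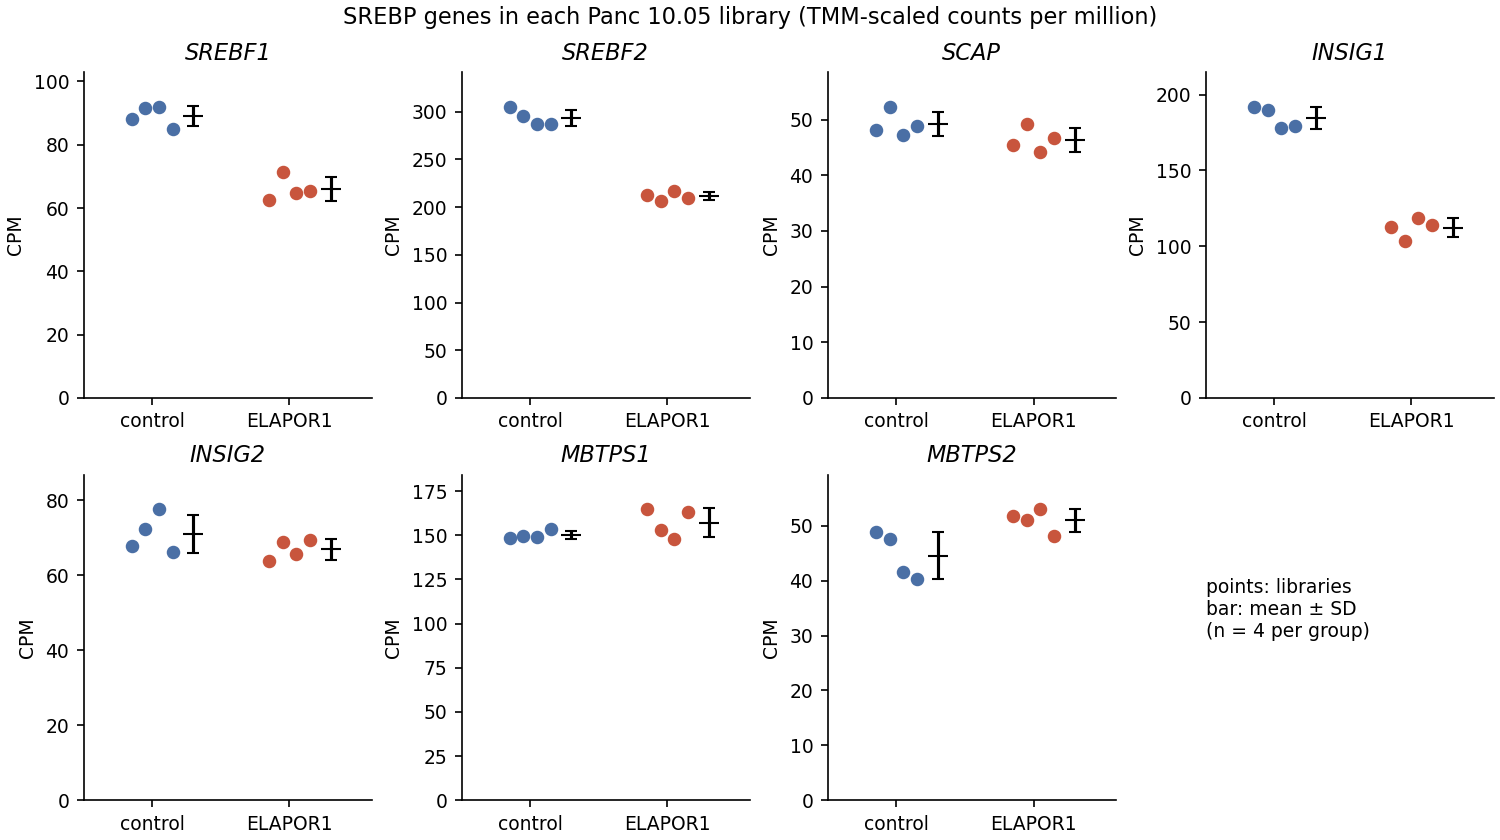
Level of each of the 7 genes in every library, in TMM-scaled CPM on an axis from 0, with the group mean and SD (n = 4 each) beside the points. The ELAPOR1 libraries of SREBF1 (62.5 to 71.3 CPM), SREBF2 (207 to 217 CPM) and INSIG1 (104 to 118 CPM) all sit below their control libraries, and the groups overlap for the other 4 genes.

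SREBF2, the sterol-directed factor, was the member with the most counts. Control libraries stood at 304.8, 295.7, 287.1 and 286.8 CPM and ELAPOR1 libraries at 213.1, 206.8, 217.1 and 209.3 CPM. Every ELAPOR1 library was thus below every control library, with little spread inside either group. Mean SREBF2 fell by 28.0%, from 294 ± 8.51 CPM in control to 212 ± 4.50 CPM (SD, n = 4 each; log2 fold change -0.47, SE 0.0311, 95% interval -0.54 to -0.41, edgeR adjusted p = 1.8e-14). SREBF2 (ENSG00000198911.12) occupies 41833079 to 41907308 on chromosome 22, plus strand. Its antisense neighbour SREBF2-AS1 had at most 4 counts in any library.

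SREBF1, the fatty acid-directed factor, was at 88.0, 91.6, 91.9 and 85.1 CPM in control libraries and at 62.5, 71.3, 64.8 and 65.5 CPM in ELAPOR1 libraries. Here too the groups were apart, with ELAPOR1 replicate 2 the nearest to the controls. Mean SREBF1 fell by 26.0%, from 89.1 ± 3.23 CPM in control to 66.0 ± 3.71 CPM (SD, n = 4 each; log2 fold change -0.43, SE 0.0447, 95% interval -0.52 to -0.34, edgeR adjusted p = 7.3e-10). The gene (ENSG00000072310.16, chromosome 17, 17810399 to 17837002, minus strand) makes the isoforms SREBP-1a and SREBP-1c from separate first exons, and a count per gene does not tell them apart. The promoter window shown covers 1 of its starts. Its end overlaps RAI1 on the other strand, and the use of strand in counting was not stated. RAI1 held 545 to 754 counts per library and did not pass the threshold (log2 fold change -0.02, edgeR adjusted p = 0.785).

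The balance between the 2 factor genes was read from their ratio. The log2 ratio of SREBF1 to SREBF2, in counts per mean transcript length within a library, was -0.84 ± 0.0659 (SD, n = 4) in control and -0.80 ± 0.104 (SD, n = 4) in ELAPOR1 libraries. This difference of 0.04 did not exceed the replicate spread (two-sided exact permutation p = 0.600), and an interval at the 97.1% level, from inverting that test, ran from -0.12 to 0.26. It turned to -0.010 without ELAPOR1 replicate 2.

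INSIG1, the anchor that SREBP itself induces, changed most. Control libraries were at 191.7, 189.8, 177.9 and 179.0 CPM and ELAPOR1 libraries at 112.7, 103.7, 118.5 and 113.9 CPM. The gap between the lowest control and the highest ELAPOR1 library was wider than the range inside either group. Mean INSIG1 fell by 39.2%, from 185 ± 7.14 CPM in control to 112 ± 6.18 CPM (SD, n = 4 each; log2 fold change -0.72, SE 0.0385, 95% interval -0.80 to -0.64, edgeR adjusted p = 8.0e-17). Only 2.99% of all tested genes had a lower log2 fold change. INSIG1 (ENSG00000186480.13) occupies 155297776 to 155310235 on chromosome 7, plus strand, with no overlapping gene in the annotation.

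INSIG2, the paralog with the same anchoring role, stood at 67.9, 72.4, 77.6 and 66.1 CPM in control and at 63.7, 68.9, 65.6 and 69.5 CPM in ELAPOR1 libraries, so the groups overlapped. Its log2 fold change was -0.08 (SE 0.0486, 95% interval -0.18 to 0.01, edgeR adjusted p = 0.160). This absence of a call rests on single libraries, since without control replicate 4 it was -0.12 and passed (edgeR adjusted p = 0.0454), and without control replicate 3 it was -0.04 (adjusted p = 0.561). INSIG2 (ENSG00000125629.15) is on chromosome 2, from 118088452 to 118110997.

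Because both anchors were read in the same libraries, their ratio does not depend on scaling. The log2 ratio of INSIG1 to INSIG2 was 1.35, 1.24, 1.05 and 1.29 in control and 0.68, 0.44, 0.71 and 0.57 in ELAPOR1 libraries. INSIG1 therefore remained the more abundant transcript per length in all 8 libraries, by a smaller margin in each ELAPOR1 library than in any control. The mean ratio went from 2.35 to 1.51 on the linear scale, a log2 difference of -0.64 with a 97.1% interval of -0.91 to -0.34. The two-sided exact permutation p was 0.0286, which is as low as 4 libraries against 4 can reach, and 0.0571 after Benjamini-Hochberg adjustment over the 4 ratios computed, so the difference does not pass 0.05 once adjusted.

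SCAP, the escort and sterol sensor, was at 48.2, 52.2, 47.3 and 48.9 CPM in control and at 45.4, 49.2, 44.1 and 46.7 CPM in ELAPOR1 libraries. These ranges overlapped. The log2 fold change was -0.08 (SE 0.0516, 95% interval -0.19 to 0.02, edgeR adjusted p = 0.195), and -0.05 without control replicate 2, its highest library. The interval of SCAP reaches -0.19 and stops short of those of both factor genes. The log2 ratio of INSIG1 to SCAP, anchor to escort, was 2.10 ± 0.0594 (SD, n = 4) in control and 1.46 ± 0.146 (SD, n = 4) in ELAPOR1 libraries, which differ by -0.63 (97.1% interval -0.92 to -0.44, exact permutation p = 0.0286, 0.0571 adjusted over the 4 ratios). On the linear scale that is 4.28 INSIG1 transcripts per SCAP transcript in control and 2.76 in ELAPOR1 libraries, with mean transcript lengths from GENCODE. SCAP (ENSG00000114650.20) is on chromosome 3, from 47413694 to 47477126.

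**Figure D2:**
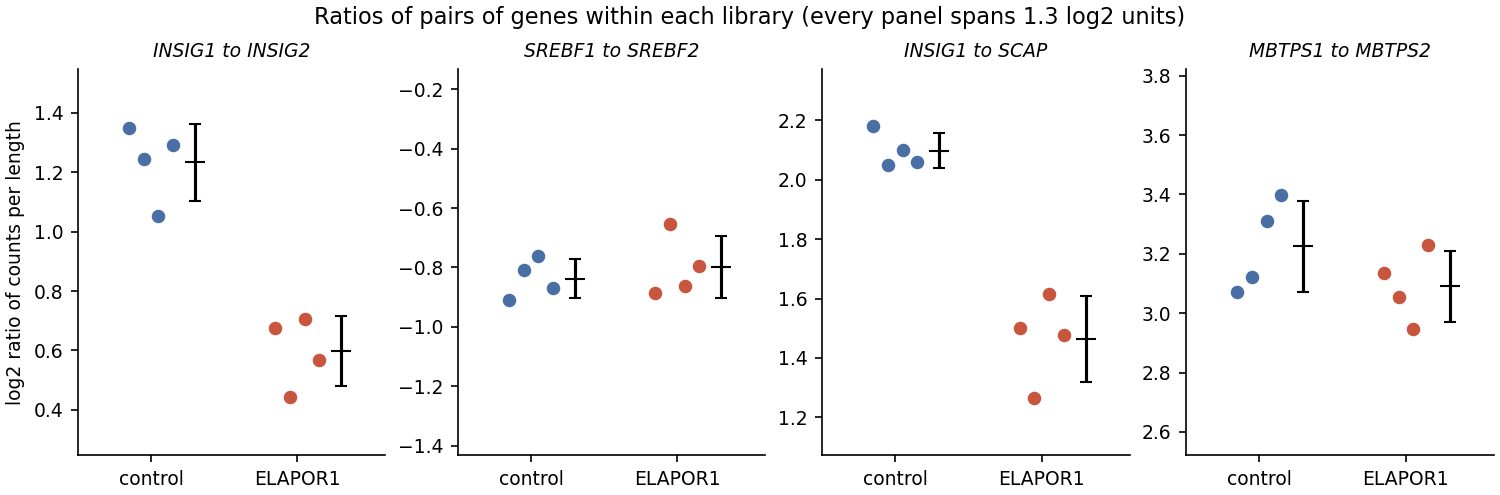
Log2 ratio of counts per mean transcript length for 4 pairs of genes in each library, with the mean and SD of each group (n = 4 each); every panel spans the same number of log2 units. INSIG1 to INSIG2 (means 1.23 and 0.60) and INSIG1 to SCAP (means 2.10 and 1.46) separate the groups, whereas SREBF1 to SREBF2 and MBTPS1 to MBTPS2 overlap.

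Of the proteases, MBTPS1 stood at 148.4, 149.8, 148.9 and 153.6 CPM in control and at 164.7, 153.3, 147.6 and 163.0 CPM in ELAPOR1 libraries. ELAPOR1 replicates 1 and 4 were above all controls and replicate 3 was below all of them. The log2 fold change was 0.07 (SE 0.0360, 95% interval -0.006 to 0.14, edgeR adjusted p = 0.132). It passed the threshold with scaling by total counts (0.09, adjusted p = 0.0431) and without ELAPOR1 replicate 3 (0.10, adjusted p = 0.0429), and was 0.04 without ELAPOR1 replicate 1. MBTPS1 (ENSG00000140943.17) is on chromosome 16, from 84053761 to 84116906.

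MBTPS2 was the single member that rose, and by little. Control libraries were at 48.8, 47.6, 41.5 and 40.4 CPM and ELAPOR1 libraries at 51.9, 51.1, 53.0 and 48.1 CPM. Control replicates 3 and 4 were low, and ELAPOR1 replicate 4 was just below control replicate 1, so the groups overlapped. The mean went from 44.6 ± 4.25 to 51.0 ± 2.09 CPM (SD, n = 4 each), an increase of 14.2% (log2 fold change 0.19, SE 0.0574, 95% interval 0.07 to 0.31, edgeR adjusted p = 6.7e-03). Once per-library trends with GC and length were removed it was 0.12 (edgeR adjusted p = 0.0444). MBTPS2 (ENSG00000012174.12, chromosome X, 21839636 to 21885424) contains the gene YY2 on the same strand, and in 2 ELAPOR1 libraries its estimated counts were not whole numbers, which marks reads divided among genes. YY2 held 24.2 to 56.2 counts per library, against 662 to 881 for MBTPS2. The log2 ratio of MBTPS1 to MBTPS2 was 3.23 ± 0.154 (SD, n = 4) in control and 3.09 ± 0.120 (SD, n = 4) in ELAPOR1 libraries, which differ by -0.13 (97.1% interval -0.45 to 0.16, exact permutation p = 0.200).

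**Figure D3:**
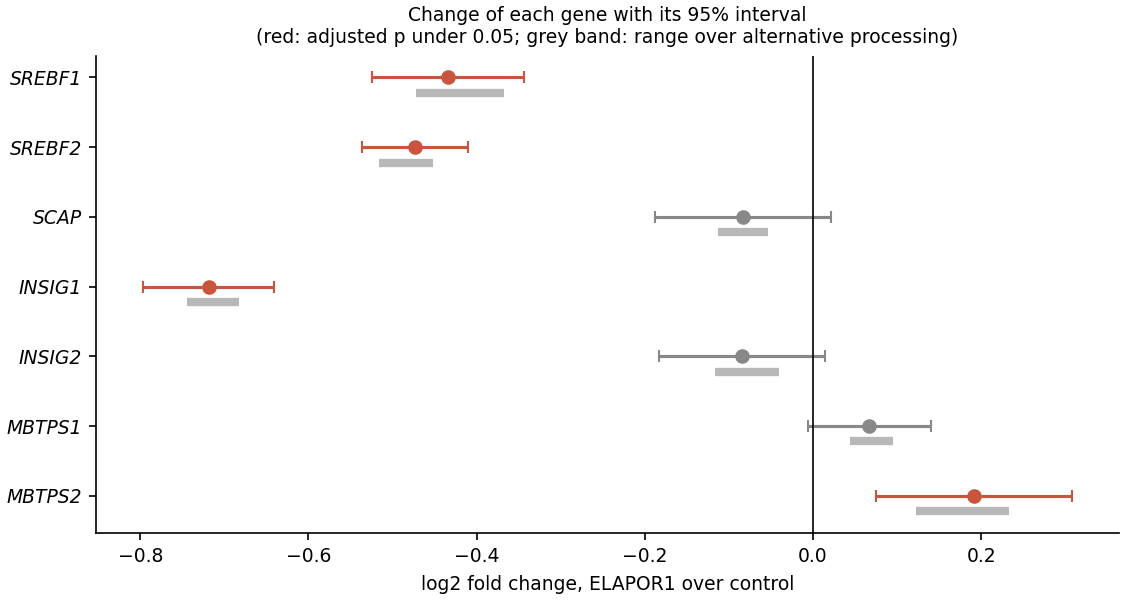
Log2 fold change of each gene, ELAPOR1 over control, with its 95% interval from edgeR; red marks an adjusted p under 0.05, and the grey band below each point spans the log2 fold changes under the alternative processing settings. INSIG1 (-0.72), SREBF2 (-0.47) and SREBF1 (-0.43) lie left of 0 with bands that stay left, SCAP, INSIG2 and MBTPS1 have intervals that cross 0, and MBTPS2 (0.19) lies to the right.

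To compare levels between genes, TPM values (transcript share by length, scaled to 1e+06 per library) were computed from the estimated counts and GENCODE transcript lengths. With the mean transcript length of each gene, the order in control libraries was INSIG1 (156 ± 7.26 TPM), MBTPS1 (156 ± 1.63), SREBF2 (151 ± 5.93), SREBF1 (84.7 ± 3.25), INSIG2 (66.4 ± 4.78), SCAP (36.4 ± 1.48) and MBTPS2 (16.7 ± 1.73) (SD, n = 4). The ranges of INSIG1 and MBTPS1, and of MBTPS1 and SREBF2, overlapped, and those of the other neighbours in this order did not. In ELAPOR1 libraries MBTPS1 stood highest at 168 ± 8.22 TPM, followed by SREBF2 at 113 ± 2.53 and INSIG1 at 98.0 ± 5.51 (SD, n = 4). There SREBF1 (64.9 ± 3.71 TPM) and INSIG2 (64.7 ± 2.69 TPM) overlapped. The order depends on the length used. With the longest transcript, INSIG1 came first in both groups (163 ± 7.97 TPM in control, 102 ± 5.63 in ELAPOR1 libraries), and SREBF1 stood below INSIG2, while INSIG1, SREBF2 and MBTPS1 overlapped in ELAPOR1 libraries.

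The wider pathway was read through 8 lists of genes around these members, 119 genes in all, of which 104 were tested. Over their union 69 genes (66.3%) were called, 44 lower and 25 higher, beside 44.7% of all tested genes. The median log2 fold change of the 104 was -0.09, against 0.00087 over all tested genes. Most of the lower calls were SREBP targets. Of the 24 genes of sterol synthesis and uptake, 21 were called, all lower, with a median of -0.57. Among all tested genes 22.1% were called lower. Among the genes of this list that were not called were PMVK (0.06) and TMEM97 (-0.10), named after their values were seen. The largest decreases were those of the farnesyl diphosphate and squalene synthases FDPS (-0.87, edgeR adjusted p = 3.0e-21) and FDFT1 (-0.78, adjusted p = 9.3e-21), and of the sterol oxidase MSMO1 (-0.77, adjusted p = 1.4e-21). Of the 24 genes, 5 had a lower log2 fold change than INSIG1, and 15 had a lower one than SREBF2 or SREBF1. In the promoter table, 15 of the 17 list genes with an entry had a CCAAT or ATTGG in a window, against 39.7% of all gene symbols, and none had TCACNCCAC.

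Of 17 tested fatty acid targets of SREBF1, 8 were called lower and 1, PNPLA3, higher (0.57, edgeR adjusted p = 0.0185, named after its value was seen), with a median of -0.11. The share of these targets called in either direction was 52.9%, near the 44.7% of all tested genes. The share called lower was 47.1%, against 22.1% of all tested genes. PNPLA3 was low, at means of 2.52 CPM in control and 3.76 CPM in ELAPOR1 libraries. Its call was lost without control replicate 3 or ELAPOR1 replicate 3. The desaturases FADS2 (-1.20, edgeR adjusted p = 1.6e-11) and SCD (-0.99, adjusted p = 7.1e-25) and the acetyl-CoA synthetase ACSS2 (-0.79, adjusted p = 5.3e-16) led the decreases. Among the genes not called were ACLY (0.06) and ACACA (-0.11), which make the precursors of fatty acids, also named after their values were seen. The fatty acid synthase gene FASN was called lower (-0.66, edgeR adjusted p = 1.7e-19), likewise named after its value was seen.

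**Figure D4:**
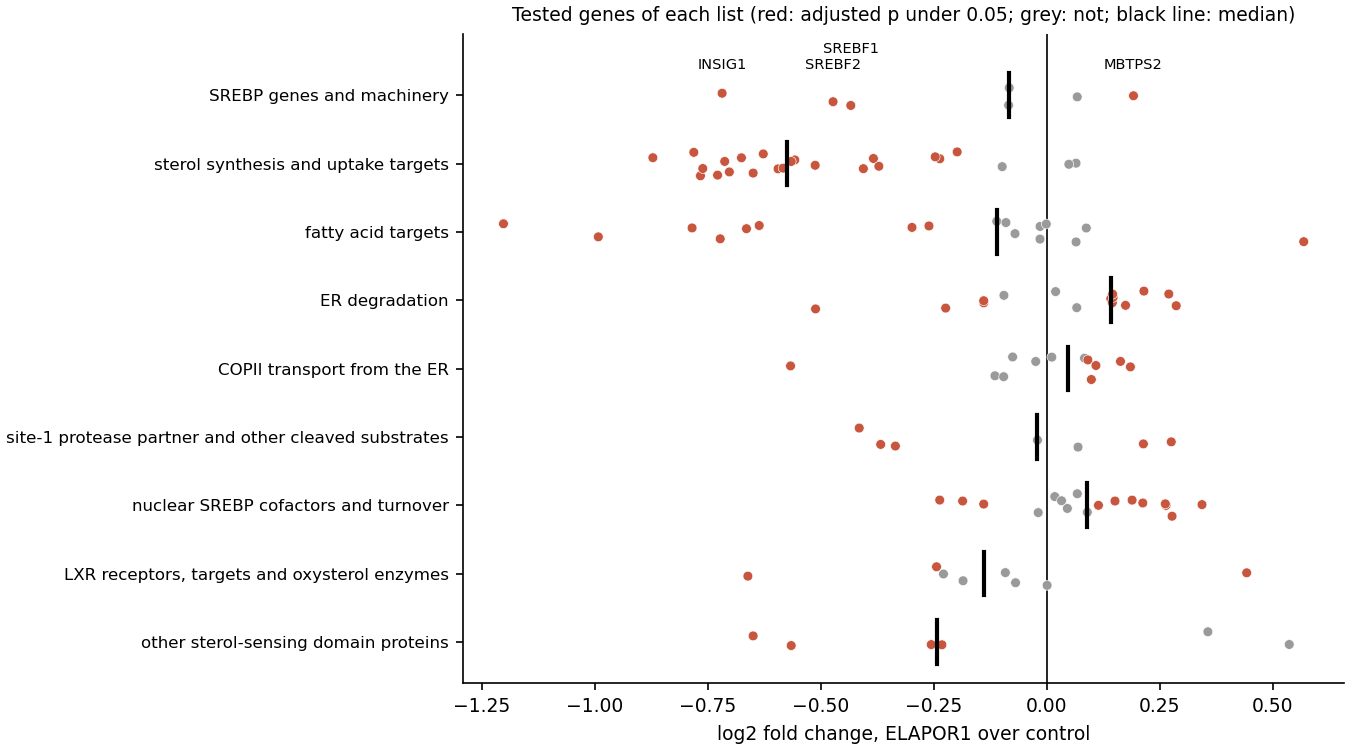
Log2 fold change, ELAPOR1 over control, of the tested genes of each list (points, red where the adjusted p was under 0.05), with the median of each list as a black line; vertical scatter within a row has no meaning. The SREBP genes and machinery, in the top row, spread from INSIG1 at -0.72 to MBTPS2 at 0.19, and 21 of the 24 genes of sterol synthesis and uptake lie to the left in red.

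In the ER degradation machinery that handles INSIG1, 12 of 15 genes were called, 8 higher and 4 lower, with a median of 0.14, beside 44.7% of all tested genes called. RNF145, an ER ubiquitin ligase, fell from 97.7 ± 2.37 to 68.5 ± 2.04 CPM (SD, n = 4 each, log2 fold change -0.51, edgeR adjusted p = 2.0e-12). ERLIN2, an ER membrane protein of the degradation complex, rose by 0.29 (adjusted p = 1.6e-04). The COPII coat that carries SCAP out of the ER had 6 of 12 genes called, 5 higher and 1 lower, with a median of 0.05, a share near that of all tested genes. The split was 3 higher and 3 lower without control replicate 4, 3 and 1 without control replicate 2 or ELAPOR1 replicate 1, and 2 and 2 with GC and length trends removed. The lower one was the cargo adaptor SEC24D (-0.57, adjusted p = 2.9e-07), and the GTPase SAR1A (0.18, adjusted p = 4.5e-05) and its exchange factor PREB (0.16, adjusted p = 0.0105) were higher. The call of PREB was lost without control replicate 1 (adjusted p = 0.0600).

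Site-1 and site-2 proteases also cut other membrane proteins. Of 7 tested genes in this group, 3 were called lower and 2 higher, with a median of -0.02. Among all tested genes 22.1% were called lower and 22.6% higher. The lower ones were the membrane-bound transcription factors CREB3L2 (-0.42, edgeR adjusted p = 2.2e-07), ATF6B (-0.37, adjusted p = 6.3e-09) and CREB3L4 (-0.34, adjusted p = 5.2e-03). SPRING1, listed as C12orf49, which the site-1 protease needs for its activation, was at -0.02 (adjusted p = 0.735). Of the 17 genes of nuclear cofactors and turnover, 8 were called higher and 3 lower, with a median of 0.09. The share called was 64.7%, beside 44.7% of all tested genes. The kinase gene MTOR rose by 0.34 (adjusted p = 1.1e-07), the coactivator gene CREBBP by 0.28 (adjusted p = 4.8e-06) and NFYA, a subunit of NF-Y, by 0.26 (adjusted p = 1.5e-05).

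The genes whose profile over the 8 libraries was nearest to that of a called member were found by the root mean square difference of centred log2(CPM + 1), among 10702 genes whose mean reached 5 CPM. For INSIG1 they included PDCD4 (0.0357) and EIF4B (0.0560). For SREBF2 they were PLCB4 (0.0277), ARHGEF28 (0.0314) and ASPH (0.0314). For SREBF1 they were ENO2 (0.0239), GUSB (0.0334) and GOLGA2 (0.0354), and for MBTPS2 they were MICAL2 (0.0371), CMTR2 (0.0388) and KIAA0586 (0.0425). The measure joins genes with a like group difference and says nothing about function.

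Most genes beside the 3 decreased members on the chromosomes were not called lower, but neither were most tested genes, of which 22.1% were called lower. Of the 20 neighbours of SREBF2 whose mean reached 5 CPM, 9 were called, all of them higher, beside 44.7% of all tested genes called, and the median log2 fold change was 0.12. The 20 neighbours of SREBF1 had a median of 0.0039, with 4 lower and 3 higher calls, and the 19 neighbours of INSIG1 a median of 0.04, with 2 lower and 5 higher. Around MBTPS1 the median was 0.11, with 9 of 12 called genes higher, beside 0.07 for MBTPS1 itself. Around MBTPS2 it was 0.03, with 4 lower and 3 higher.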

How the data were processed

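RNA from 8 libraries of Panc 10.05, 4 control and 4 with the ELAPOR1 transgene, was sequenced. The authors deposited 1 table of estimated counts per gene (RSEM expected counts, per the submitters' processing notes and the values), unscaled, with a column per library. The submitters' processing notes name cutadapt, STAR, RSEM, DESeq2 and hg38, without versions. Annotation release and strandedness are not given in the sources used here. Of the nonzero values, 15.0% were not whole.

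Counts were rounded and tested in edgeR 4.0.16 (R 4.3.3): filterByExpr, TMM scaling, robust quasi-likelihood test, no covariate, two-sided, Benjamini-Hochberg adjustment over 13860 genes. The standard error is the log2 fold change divided by the square root of F. The calls and log2 fold changes of this test were checked on counts simulated with a dispersion common to all genes, and the standard error was not checked. Single values were compared by exact permutation over libraries. Coordinates, lengths and GC content came from GENCODE release 29 (GRCh38), which held 58597 of 58870 identifiers. Promoters and microRNAs were matched by symbol to RefSeq tables (GRCh38.p14), and all 7 members had an entry.

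The members, lists and tests were chosen with earlier results of these data known, so a pattern in them is no independent support. All members were named. From each list, the 3 called genes with the largest change and a mean of at least 5 CPM were named, and 3 nearest profiles for each called member. Some of the genes so chosen are not reported here. Alternatives were other scalings, filters and tests (DESeq2 1.42.0, limma-voom 3.58.1), a replicate block, GC and length trends, stricter thresholds, and each library left out.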

Additional observations from a re-analysis of the deposited data

Results flagged for a closer look

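In 5 groups of 4 libraries, 1 library lay apart from the other 3 by more than Dixon's 95% critical value, all for named pathway genes and none for a member, a ratio or a library total. A total of 72 groups was examined, of which chance flags about 1 in 20, or 3.6. Control replicate 1 had 78.4 CPM of NFYA, where the remaining controls had 71.6 to 72.5. ACSS2 stood at 79.2 CPM in ELAPOR1 replicate 3, with the remaining ELAPOR1 libraries at 70.5 to 71.4. RNF145 was at 65.5 CPM in ELAPOR1 replicate 1 and 69.2 to 69.9 CPM elsewhere in that group. ABCA1 was at 8.65 CPM in ELAPOR1 replicate 1 against 7.67 to 7.78 CPM. RXRB was at 45.3 CPM in ELAPOR1 replicate 3 against 47.0 to 47.1 CPM. All 5 genes kept their direction and their call under the 17 alternatives that gave a log2 fold change.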

How the results depend on the processing

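SREBF1 (-0.47 to -0.37), SREBF2 (-0.52 to -0.45), INSIG1 (-0.74 to -0.68) and MBTPS2 (0.12 to 0.23) kept direction and call under all 17 alternatives that gave a log2 fold change. Against a 1.5-fold change, 1 member, 9 pathway genes and 215 of all tested genes were called, by the construction of that test. Otherwise 4 or 5 members were called, and 62 to 70 pathway genes. Leaving out libraries gave -0.70 to -0.58 for INSIG1 to INSIG2, -0.68 to -0.57 for INSIG1 to SCAP, -0.010 to 0.067 for SREBF1 to SREBF2 and -0.19 to -0.08 for MBTPS1 to MBTPS2, where 4 against 3 libraries cannot give a p below 0.0571. With the replicate block, the first 2 ratios changed by -0.64 and -0.63 (exact permutation p = 0.125 each, the smallest that 4 pairs can give), and 4 members, 68 pathway genes and 5926 of all genes were called. Deviations of same-numbered libraries correlated at -0.11 to 0.04 over 10703 genes, so the numbers were not taken as pairs. Of the 24 pathway genes that the naming rule took, 23 kept their call under the same 17 alternatives, the exception being PREB. Counting all calls, total count scaling moved the split from 3127 higher and 3066 lower to 3490 and 2736, with a shift of the median of all genes to 0.02.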

Other observations

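The oxysterol receptor LXR is known to raise SREBF1 transcription. Of 14 genes of its receptors, targets and oxysterol enzymes, 8 were tested and 3 (37.5%) were called, beside 44.7% of all tested genes. The untested ones were RXRG, ABCG1 and the oxysterol enzymes CH25H, CYP27A1, CYP46A1 and CYP7B1, with at most 13 counts in any library. ABCA1, the cholesterol exporter that LXR induces, fell from 12.6 ± 1.68 to 7.95 ± 0.470 CPM (SD, n = 4 each, log2 fold change -0.66, edgeR adjusted p = 3.7e-06), and the receptor partner RXRB fell by 0.24 (adjusted p = 9.1e-05). LPCAT3, a phospholipid acyltransferase also known as an LXR target, rose by 0.44 (adjusted p = 2.9e-07). The receptor genes NR1H2 (-0.07, adjusted p = 0.201) and NR1H3 (-0.23, adjusted p = 0.0614), named after their values were seen, did not pass the threshold.

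SCAP shares its sterol-sensing domain with other membrane proteins, of which 6 of 12 were tested. The sterol reductase DHCR7 (-0.57, edgeR adjusted p = 2.1e-16) and the lysosomal cholesterol transporter NPC1 (-0.26, adjusted p = 3.5e-05) were lower, as was the hedgehog receptor PTCH1 (-0.23, adjusted p = 0.0163, named after its value was seen). None of the 6 was called higher, beside 22.6% of all tested genes.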
